A study of Homo sapiens with 12 samples.

Results

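The difference in electric field response between 2 human lung adenocarcinoma lines, CL1-0 and CL1-5, was measured across all genes on an Affymetrix array. It was taken as the field-minus-control change in CL1-5 minus the same change in CL1-0, on log2 signals, with replicate numbers as pairs within each line. All 12 of the 12 arrays of the study entered it, 3 in each of 4 groups. The groups were CL1-0 at 0 mV/mm, CL1-0 at 300 mV/mm, CL1-5 at 0 mV/mm and CL1-5 at 300 mV/mm, each for 2 h. Every group, controls included, had been held overnight under medium flow with serum inside a microfluidic chip, then switched to DMEM without serum for the treatment, and was detached with trypsin before RNA extraction. The labels call the replicates biological, but no label says which cultures or days they shared, so p-values here measure the spread between these arrays. A cell line stands for 1 tumour-derived population, and with 1 pair of lines a difference cannot be assigned to their invasiveness or to any other trait.

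A direct-current electric field of the kind found near wounds can steer migrating cells, a behaviour called electrotaxis. The field acts on the cell surface, where it can shift charged receptors, ion channels and transporters, and signalling through growth factor receptors, PI3K and small GTPases then polarises the actin cytoskeleton. CL1-5 is a more invasive line selected from CL1-0. The comparison asks whether the same field was followed by different transcript levels in the line of high and the line of low invasiveness.

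The arrays held 54675 probe sets. Of these, 31948 exceeded the median signal of their array on at least 3 arrays, and they gave 13882 named genes, each read from its brightest probe set. Among them 9904 lay above the array median on all 12 arrays. The epithelial keratins KRT7, KRT8 and KRT18 were above the array median on all 12 arrays. CDH1 and EPCAM had group means of 9.14 to 9.51 in CL1-0 and 4.86 to 5.90 in CL1-5 (log2 signal), and KRT19 was above the median on 2 of 12 arrays. The lung lineage genes NKX2-1 and SFTPB were above the median on all 12, NAPSA on 10 and SFTPC on 6. The summed linear signal of these 4 was 466 to 605 without and 407 to 656 with the field in CL1-0. In CL1-5 it was 417 to 540 without and 331 to 367 with the field, ranges that did not overlap. Markers of other cell types were mixed. Of 6 endothelial markers, VWF, CDH5 and TEK were above the median on no array, PECAM1 was above it on all 12, and CLDN5 averaged 9.15 and 8.93 in the CL1-5 groups against 4.25 and 4.40 in the CL1-0 groups. The summed linear signal of 6 endothelial markers was 196 to 252 in CL1-0 arrays and 639 to 2656 in CL1-5 arrays, with overlapping ranges at 0 and 300 mV/mm within each line. Of 6 fibroblast markers, COL1A1 was above the median on all 12 arrays and DCN on 7, and their summed signal was 460 to 905 in CL1-0 arrays and 323 to 534 in CL1-5 arrays. Of 5 leukocyte markers, PTPRC and CD14 were above the median on no array, CD3E on 6, CSF1R on 5 and CD3D on 4, with a summed signal of 161 to 250 in CL1-0 and 197 to 408 in CL1-5. For both types the ranges with and without the field overlapped within each line. The part of these markers in the results was not tested.

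The first CL1-5 pair stood apart. Among genes above the median on all arrays, 579 genes (5.85%) differed by more than 1 log2 unit between the field and control array of that pair, against 39, 93 and 77 in the CL1-0 pairs and 103 and 217 in the other CL1-5 pairs. The field array of that pair had the highest single signal, 114821, and a ratio of 3' to 5' signal for actin of 1.54, against 1.21 to 1.32 on the other 11. The part of these values in the results was not tested. Several of the values are also given without it. Replicate 1 of every group also lacked the signal of the dap control RNA (7.02 to 17.7 against 906 to 1224 in replicates 2 and 3). The signal of the 18S ribosomal RNA probe sets was likewise low in replicate 1, at 30.0 to 92.7 against 2983 to 4649. Both splits run across all 4 groups alike.

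No gene passed an adjusted p of 0.05 for the difference between the lines (0 of 13882, 0%), by limma with Benjamini-Hochberg adjustment, and the smallest adjusted p was 0.342. The response within CL1-5 and the response within CL1-0 gave 0 genes as well (0% of genes tested in each), with smallest adjusted p of 0.281 and 0.222. At an unadjusted p under 0.05 there were 1002 genes for the difference. Of these, 435 (3.13%) had the higher response in CL1-5 and 567 (4.08%) the lower. The CL1-5 response gave 1488 (10.7%) and the CL1-0 response 467 (3.36%). Both responses were judged by 1 spread pooled over all 6 pairs, with a median standard error of 0.20 each. Without the first CL1-5 pair they gave 1451 (10.5%) and 706 (5.09%), so these counts do not rank the lines by response. For the difference, the split between directions turned with the scaling: with arrays centred on their median, 725 genes (5.22%) were higher and 314 (2.26%) lower. The counts were 593 (4.27%) higher and 616 (4.44%) lower without the first CL1-5 pair, and without the second pair of both lines 218 (1.57%) and 393 (2.83%). The median standard error of the difference was 0.29 log2 units, and the median half-width of its 95% interval was 0.64. The absence of calls therefore does not show that the lines responded alike. In bulk RNA of this kind, fewer cells with a transcript and less of it per cell cannot be told apart.

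The response was small for most bright genes. The mean response over 3 pairs had a standard deviation across the 9904 brighter genes of 0.18 in CL1-0 and 0.26 in CL1-5. The 2 responses share no arrays, and across those genes they had a Pearson correlation of -0.075 and a Spearman correlation of -0.079, which is a description over genes that share arrays and scaling. Pairs of the same line were little more alike: r lay between -0.028 and 0.191 for pairs within CL1-0, between -0.017 and 0.127 within CL1-5, and between -0.121 and 0.114 for pairs of different lines. For 882 genes (6.35%) all 3 CL1-5 pairs exceeded all 3 CL1-0 pairs, and for 1119 (8.06%) all lay below. In 282 genes (2.03%) the field array was the higher in every CL1-5 pair and the lower in every CL1-0 pair, and in 360 (2.59%) the reverse held.

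**Figure D1:**
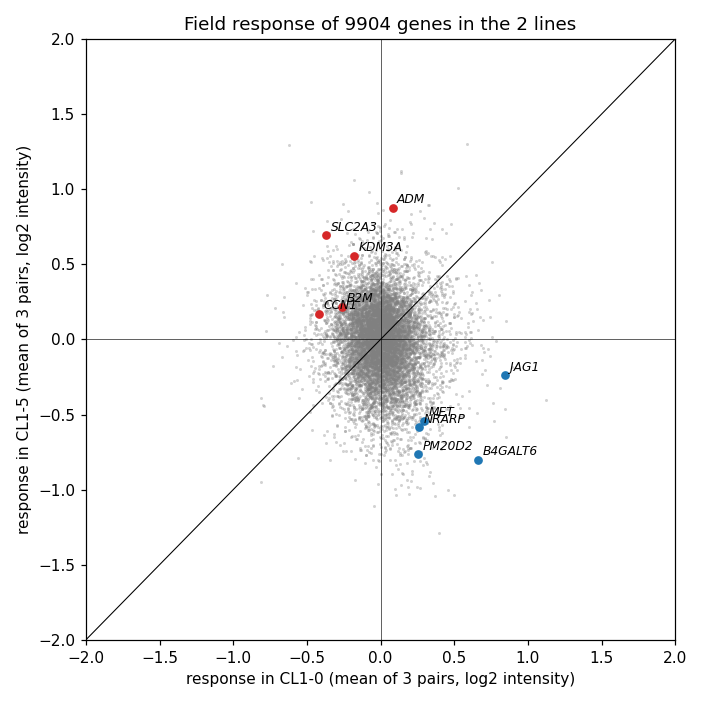
Each grey point is 1 of 9904 genes above the array median on all 12 arrays, placed by its mean field response over 3 pairs in CL1-0 (horizontal) and CL1-5 (vertical), in log2 intensity. Named genes in red had the higher response in CL1-5 and those in blue the lower; the cloud is wider vertically (SD 0.26) than horizontally (SD 0.18) and does not follow the diagonal.

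The gene with the smallest p for the difference was JAG1, a membrane-bound ligand of Notch receptors. Its log2 signals in CL1-0 were 7.78, 10.19 and 9.92 without the field and 8.63, 11.01 and 10.79 with it (replicates 1, 2 and 3). In CL1-5 they were 14.41, 12.97 and 13.53 without the field and 14.01, 12.60 and 13.59 with it. The ligand was thus brighter with the field in each CL1-0 pair, by 0.85, 0.82 and 0.86, and was not so in CL1-5, where the pairs gave -0.40, -0.38 and 0.05. The levels of CL1-0 replicates with and without the field overlapped, because the replicates lay far apart, and only the differences within pairs were tight. The difference between the lines was -1.09 ± 0.17 (SE, 3 pairs per line; 95% interval -1.47 to -0.71, adjusted p = 0.342 by limma across all genes). Without the first CL1-5 pair it was -1.01. All 5 probe sets of JAG1 that passed the filter had a lower response in CL1-5, from -0.78 to -1.37, 4 of them at an unadjusted p under 0.05. Probe sets of 1 gene share the arrays and are no replicates of the condition.

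Other genes of the Notch pathway did not share a direction. Notch receptors are cut after a ligand on a neighbouring cell binds them, and the released fragment joins RBPJ in the nucleus to switch on HES, HEY and NRARP. Of 24 pathway genes tested, 12 had a difference above 0, with a median of 0.00 against -0.03 over all genes tested. The receptors NOTCH1 and NOTCH2 had differences of 0.05 ± 0.25 and 0.17 ± 0.17, and the target HES1 had 0.10 ± 0.25; these 3 were named after their values were seen. The median became 0.08 when the first CL1-5 pair was left out, and NOTCH1 and NOTCH2 had 0.22 and 0.27. At an unadjusted p under 0.05, 1 of the 24 (4.17%) lay higher in CL1-5 and 2 (8.33%, JAG1 among them) lower, beside 3.13% and 4.08% of all genes. RBPJ had pair responses of -0.24, -0.12 and 0.06 in CL1-0 and 0.55, 0.36 and 0.33 in CL1-5, a difference of 0.51 ± 0.16 (adjusted p = 0.678 by limma). A second RBPJ probe set, nearly as bright (mean 11.51 against 11.76), gave 0.015, and the dimmest gave 0.62. NRARP, a feedback inhibitor of the pathway, had pair responses of -0.01, 0.62 and 0.18 in CL1-0 and -0.69, -0.83 and -0.24 in CL1-5, a difference of -0.85 ± 0.27 (adjusted p = 0.678). In the probe set used for each of these genes, the pairs of the 2 lines did not overlap.

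**Figure D2:**
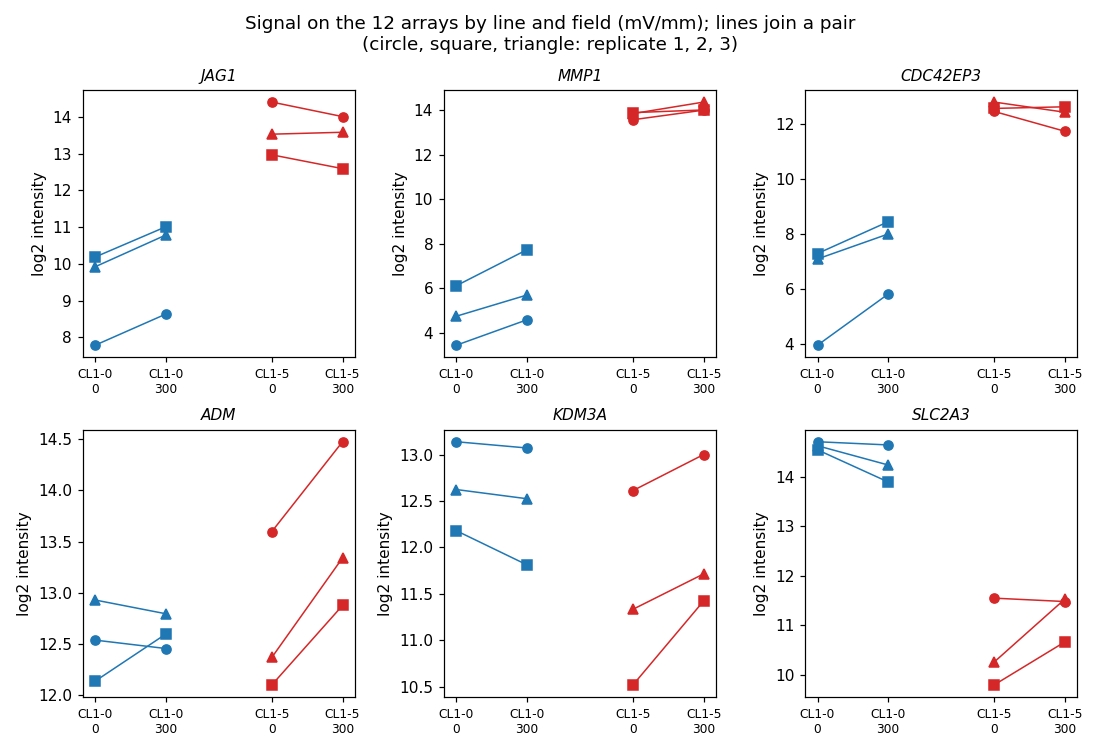
Log2 intensity of 6 genes on the 12 arrays, by line and field strength (0 or 300 mV/mm); each line joins the control and field array of 1 pair. JAG1, MMP1 and CDC42EP3 were brighter with the field in all 3 CL1-0 pairs, from a lower level than in CL1-5, while ADM and KDM3A were brighter with the field in all 3 CL1-5 pairs.

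CDC42EP3, which binds the small GTPase Cdc42 and acts on the actin and septin cytoskeleton, followed the course of JAG1. Its log2 signals in CL1-0 were 3.94, 7.28 and 7.08 without the field and 5.80, 8.43 and 7.99 with it. In CL1-5 they were 12.44, 12.55 and 12.79 without and 11.72, 12.61 and 12.42 with it. Every CL1-0 pair was thus higher with the field and none of the CL1-5 pairs by more than 0.06. The difference was -1.65 ± 0.30 (adjusted p = 0.566), and -1.05 when low values were raised to the array median, since replicate 1 of CL1-0 was dim. All 4 probe sets lay below 0, the weakest at -0.9995 and the strongest at -1.65, each at an unadjusted p under 0.05.

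MMP1, an interstitial collagenase, had the smallest p for the field response within CL1-0. Its signal there was 3.45, 6.12 and 4.75 without the field and 4.59, 7.74 and 5.71 with it, near or below the array median of about 6 log2 units. In CL1-5 it was 13.58, 13.90 and 13.86 without and 14.02, 14.02 and 14.38 with it. It was brighter with the field in all 6 pairs, by 0.95 to 1.62 in CL1-0 and by 0.12 to 0.52 in CL1-5. The difference of -0.88 ± 0.24 (adjusted p = 0.678) shrank to -0.24 with low values raised. MMP9, a gelatinase, went the other way: pair responses were -0.28, -0.51 and -0.01 in CL1-0 and 0.85, 0.61 and 0.82 in CL1-5, a difference of 1.03 ± 0.26 (adjusted p = 0.678), from 1 probe set.

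Growth factor receptors are placed early in models of electrotaxis. Of 19 genes of ErbB receptors, their ligands and adaptors, 6 had a difference above 0, with a median of -0.17. The list's median response in the pairs was 0.1095, 0.1605 and 0.1012 for CL1-0 against -0.3012, 0.0989 and 0.038 for CL1-5, a narrow separation. At an unadjusted p under 0.05, 1 (5.26%) lay higher and 3 (15.8%) lower in CL1-5, beside 3.13% and 4.08% of all genes. Without the first CL1-5 pair the median was -0.08, with 8 of 19 above 0. In that fit 1 gene lay higher and 1 lower at that threshold, beside 4.27% and 4.44% of all genes. Averaging the probe sets of each gene also gave a median of -0.08. EGFR itself had pair responses of 0.32, 0.74 and 0.29 for CL1-0 against 0.25, 0.40 and 0.45 for CL1-5. Its field array was thus the brighter in all 6 pairs, and its difference was -0.08 ± 0.19 (95% interval -0.52 to 0.35; -0.03 without the first CL1-5 pair). Of its 7 probe sets 3 lay below 0, and none had an unadjusted p under 0.05. MET, the receptor of hepatocyte growth factor, stood at 9.96, 11.40 and 10.87 in CL1-0 without the field and 10.12, 11.78 and 11.21 with it, and at 10.45, 10.51 and 10.55 in CL1-5 without it and 9.71, 9.71 and 10.46 with it. Every CL1-0 pair was higher with the field and every CL1-5 pair lower, and the difference was -0.84 ± 0.22 (adjusted p = 0.678; -0.74 without the first CL1-5 pair). All 4 MET probe sets had a difference below 0, from -0.07 to -0.84, 1 of them at an unadjusted p under 0.05. LRIG1, which marks ErbB receptors for degradation, had a difference of -0.93 ± 0.36, but its other probe set gave 1.43. SHC1, an adaptor of these receptors, had 0.39 ± 0.15, and its other probe set gave -0.02.

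Among the 12 genes with the lower CL1-5 response and the smallest p, B4GALT6 and COX3 had an adjusted p equal to that of JAG1. B4GALT6 makes lactosylceramide, a glycolipid of the cell surface. Its log2 signals were 7.98, 8.87 and 8.82 without and 8.62, 9.61 and 9.42 with the field in CL1-0, and 9.86, 9.64 and 9.94 without and 8.75, 9.06 and 9.22 with it in CL1-5. The pairs were opposed: 0.65, 0.74 and 0.60 for CL1-0 against -1.11, -0.58 and -0.72 for CL1-5. The difference was -1.46 ± 0.23 (limma adjusted p = 0.342), and -1.31 without the first CL1-5 pair. Of 4 probe sets 3 lay below 0, 2 of them at an unadjusted p under 0.05, and the dimmest gave 0.49.

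The probe set named for COX3, a respiratory subunit encoded in mitochondrial DNA, had a difference of -1.02 ± 0.16 with opposed pairs. The other 6 mitochondrial genes measured lay between -0.07 (ND2) and 0.33 (ND4), so they did not share this value. NECTIN1, a cell adhesion molecule of adherens junctions, had pair responses of 0.30, 0.73 and 0.47 in CL1-0 and -1.04, -1.20 and -0.87 in CL1-5, a difference of -1.54 ± 0.33 (adjusted p = 0.678), while its dimmer probe set gave 0.94. TTF2, which releases stalled transcription complexes, had -1.69 ± 0.28 (adjusted p = 0.437), and its other probe set 0.09. PM20D2, a peptidase family member, and FLVCR1, a transporter of heme and choline, had differences of -1.02 ± 0.23 and -0.92 ± 0.21, each with both of its probe sets below 0 at an unadjusted p under 0.05. PLS1, an actin-bundling protein of epithelial cells, had pair responses of 0.32, 0.45 and 0.49 in CL1-0 and -0.40, -0.77 and -0.70 in CL1-5, from 1 probe set. The rest were U2AF2, PREPL, SLC35F5 and DFFA, between -0.66 and -1.15. The other U2AF2 probe sets gave -0.29 and, at a low mean signal of 4.57, 2.47. The other PREPL probe sets gave 0.0095 and -0.27, and the other DFFA probe sets gave 0.31 and -0.07. For SLC35F5 the other probe sets gave -1.22 and 0.18.

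The 12 genes with the higher CL1-5 response and the smallest p had differences of 0.59 to 1.18. PIAS2, a ligase for the SUMO modifier, led with log2 signals of 10.27, 10.01 and 10.09 without and 9.88, 9.74 and 9.38 with the field in CL1-0, and 9.49, 9.20 and 9.44 without and 10.37, 10.09 and 9.84 with it in CL1-5. No array of a field group overlapped its control group in either line. The difference was 1.18 ± 0.22 (adjusted p = 0.678). Only this 1 of its 6 probe sets had an unadjusted p under 0.05, and the other 5 lay between -0.65 and 0.36. TFDP2, a partner of E2F factors, had 0.99 ± 0.20, again from 1 of 4 probe sets, and RAD54L2, a helicase, had 1.17 ± 0.26 from 1 of 3. PRKAB2, a regulatory subunit of the energy sensor AMPK, had pair responses of -0.15, -0.02 and -0.24 in CL1-0 and 0.53, 0.41 and 0.59 in CL1-5, a difference of 0.65 ± 0.17 (adjusted p = 0.678). All 3 of its probe sets lay higher in CL1-5, from 0.58 to 0.71, each at an unadjusted p under 0.05. RAB27A, which docks secretory vesicles and exosomes, had 0.85 ± 0.22 with 2 of 5 probe sets at an unadjusted p under 0.05. BCKDHA and MAGED1 had 0.64 and 0.59 from 1 probe set each. DLGAP4, POGZ and GRB10 had 1.04, 0.82 and 0.73, but DLGAP4 also had a probe set below 0 at an unadjusted p under 0.05, the other POGZ probe set gave -1.54, and only 1 of 4 GRB10 probe sets passed that threshold.

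**Figure D3:**
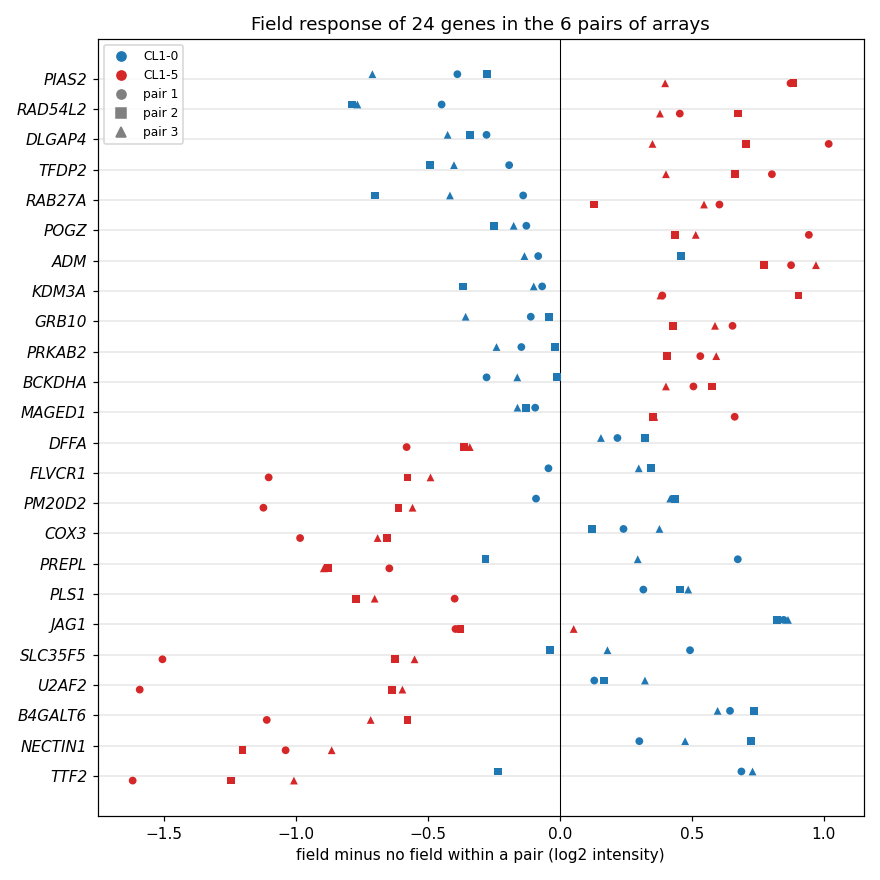
Field response in each of the 6 pairs (log2 intensity, field array minus control array) for the 12 genes with the smallest p in each direction among genes above the median on all 12 arrays with pairs that do not overlap between the lines. The genes were chosen for this separation, so the gap between blue (CL1-0) and red (CL1-5) symbols is a description; the first CL1-5 pair (red circles) is the lowest in several of the lower genes.

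The remaining 2 genes of those 12, ADM and KDM3A, belong to the hypoxia and glycolysis list. Such genes are switched on by HIF factors, which bind a short core sequence near their targets and are stabilised by low oxygen or by growth factor signalling. Of 39 genes of the list tested, 31 had a difference above 0, with a median of 0.18 against -0.03 over all genes tested. At an unadjusted p under 0.05, 8 (20.5%) lay higher in CL1-5 and 0 lower, beside 3.13% and 4.08% of all genes. The list's median response in the pairs was 0.02, 0.13 and 0.13 for CL1-0 against 0.19, 0.44 and 0.29 for CL1-5. The 2 lines thus did not overlap, a gap that 6.35% of all single genes also had in this direction. In CL1-5, 36 of 39 genes had a mean response above 0, and in CL1-0 30 of 39. Without the first CL1-5 pair the median difference was 0.29, with 13 genes higher at an unadjusted p under 0.05, beside 4.27% of all genes in that fit. Without the second pair of both lines it was 0.12, with 3 genes higher beside 1.57%, and quantile normalization of the arrays lowered the median to 0.09, with 24 of 39 above 0. No gene of the list passed the adjusted threshold.

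ADM encodes adrenomedullin, a secreted vasodilator peptide. Its log2 signals in CL1-0 were 12.54, 12.14 and 12.93 without the field and 12.46, 12.60 and 12.80 with it. In CL1-5 they were 13.60, 12.10 and 12.37 without the field and 14.48, 12.88 and 13.34 with it. All 3 CL1-5 pairs were higher by 0.78 to 0.97 and only the second CL1-0 pair was higher, by 0.46. The difference was 0.79 ± 0.18 (95% interval 0.39 to 1.19, adjusted p = 0.678), the same to 2 decimals without the first CL1-5 pair. ADM also had the smallest p for the field response within CL1-5, 0.87 ± 0.13 with an adjusted p of 0.281.

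KDM3A, a histone demethylase, stood at 13.14, 12.18 and 12.62 without and 13.07, 11.81 and 12.52 with the field in CL1-0, and at 12.61, 10.52 and 11.33 without and 13.00, 11.42 and 11.71 with it in CL1-5. The pairs were opposed, and the difference was 0.74 ± 0.19 (adjusted p = 0.678). SLC2A3, a glucose transporter, stood at 14.72, 14.55 and 14.64 without and 14.65, 13.90 and 14.25 with the field in CL1-0, and at 11.55, 9.79 and 10.25 without and 11.48, 10.66 and 11.53 with it in CL1-5. Its first CL1-5 pair, at -0.07, overlapped the CL1-0 pairs, and the difference of 1.06 ± 0.30 became 1.44 without that pair. All 3 SLC2A3 probe sets lay higher in CL1-5, 2 of them at an unadjusted p under 0.05. The other genes of the list at that threshold, named after their values were seen, were HILPDA (0.63), ANKRD37 (0.78), ANGPTL4 (0.97), MXI1 (0.47) and PFKFB4 (0.48). The other PFKFB4 probe set gave -0.18, that of HILPDA 0.62 and that of ANGPTL4 0.86. DDIT4, a stress-induced inhibitor of mTOR, had 0.37 ± 0.20, with pairs that overlapped between the lines.

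**Figure D4:**
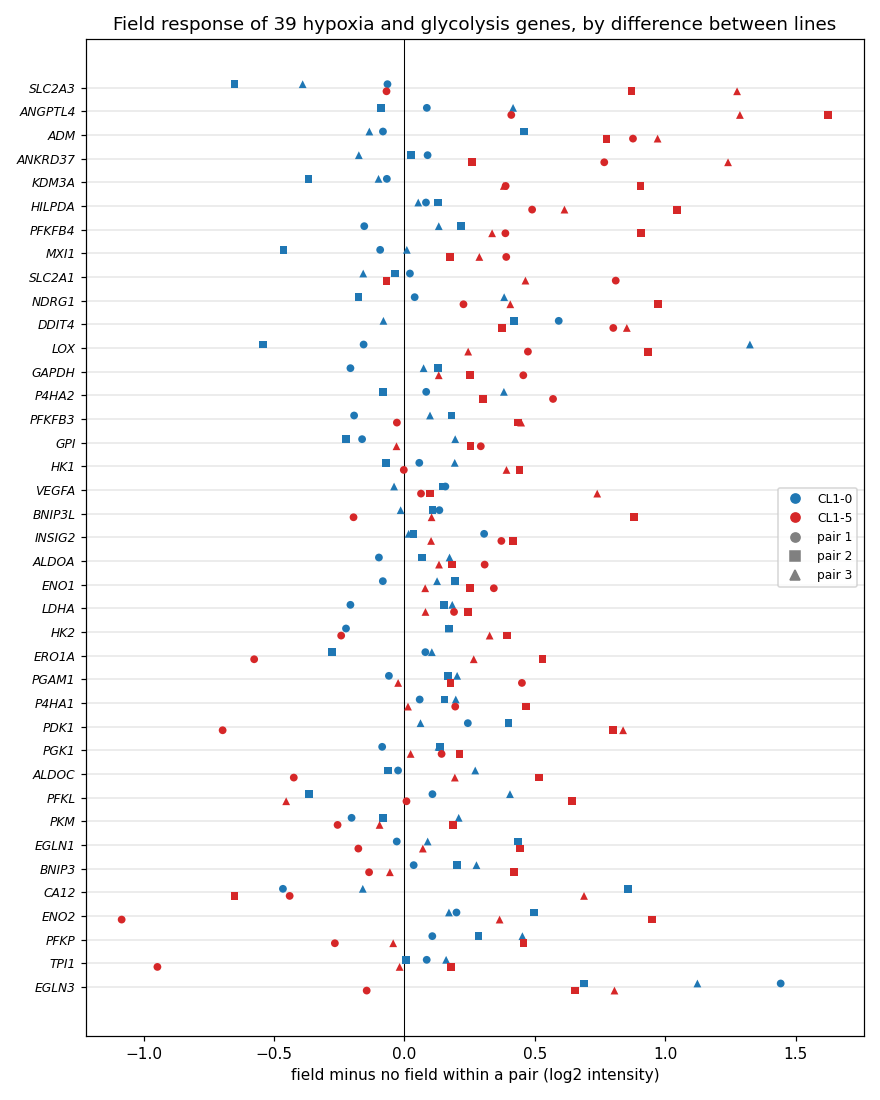
Field response in each pair (log2 intensity) of the 39 hypoxia and glycolysis genes tested, ordered by the difference between the lines. In the upper rows most CL1-5 pairs (red) lie to the right of the CL1-0 pairs (blue); in the lower rows they mix.

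The promoters of ADM and KDM3A are shown because these genes led the list. Each sequence runs from 250 bases before to 50 bases after the annotated start on the plus strand (RefSeq, GRCh38.p14). Capitals mark the HIF core, searched as ACGTG and GCGTG on both strands.
ADM, chr11:10304823-10305122: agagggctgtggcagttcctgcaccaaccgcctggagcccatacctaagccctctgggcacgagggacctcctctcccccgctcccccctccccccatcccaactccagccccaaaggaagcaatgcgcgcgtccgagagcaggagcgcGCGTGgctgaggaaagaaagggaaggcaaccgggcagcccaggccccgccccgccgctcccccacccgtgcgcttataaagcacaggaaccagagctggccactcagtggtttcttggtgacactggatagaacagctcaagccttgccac
KDM3A, chr2:86441121-86441420: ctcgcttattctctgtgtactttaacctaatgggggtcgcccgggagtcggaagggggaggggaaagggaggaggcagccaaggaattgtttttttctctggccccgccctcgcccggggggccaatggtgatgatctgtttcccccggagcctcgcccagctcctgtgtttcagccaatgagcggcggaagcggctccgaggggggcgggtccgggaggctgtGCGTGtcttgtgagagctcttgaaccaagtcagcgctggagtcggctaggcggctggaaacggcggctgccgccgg
Each held 1 match, GCGTG, beginning at position -101 in ADM and -26 in KDM3A. Of 39 genes of the list, 34 had a promoter in the reference table, and 26 of them (76.5%) held at least 1 match, against 62.0% of the 11170 promoters of all genes tested. GCGTG, the match in ADM and KDM3A, was present in 17 of 34 list promoters (50%) and in 49.8% of all, and ACGTG in 17 of 34 and in 26.1%. A match in such a window is a description of letters and shows no binding.

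Immediate early genes, transcription factors and signalling genes induced within minutes to hours of a stimulus, split in both directions. Of 33 tested, 19 had a difference above 0, with a median of 0.05, and 7 (21.2%) lay higher and 2 (6.06%) lower in CL1-5 at an unadjusted p under 0.05, beside 3.13% and 4.08% of all genes. Without the first CL1-5 pair the median was 0.34, and without the third pair of both lines -0.05. EGR1 had pair responses of -0.44, 1.05 and 0.08 in CL1-0 and 0.70, -0.20 and 0.10 in CL1-5, a difference of -0.03 ± 0.36 (-0.28 without the first CL1-5 pair). FOS had 0.69 ± 0.45, and 0.29 without that pair. Neither line showed a shared direction for EGR1 over its pairs.

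CCN1, a matrix-associated signalling protein and target of YAP, was lower with the field in each CL1-0 pair. Its log2 signals there were 13.43, 11.43 and 12.52 without and 13.13, 11.10 and 11.90 with the field, and in CL1-5 13.64, 13.57 and 13.69 without and 13.61, 14.07 and 13.75 with it. The difference was 0.59 ± 0.18 (adjusted p = 0.678), and both probe sets lay above 0 at an unadjusted p under 0.05. BHLHE40, a repressor of the circadian clock that also responds to hypoxia, had 0.59 ± 0.19 with both probe sets at that threshold. IER3, CCN2, ATF3 and NR4A3, named after their values were seen, had 0.45, 0.64, 0.87 and 1.67. The probe set used for NR4A3 had a low mean signal of 6.78, and its other probe sets gave 0.67 and 0.68. The other ATF3 probe set gave 0.25, and ATF3 had 0.63 without the first CL1-5 pair. TRIB1 and KLF4 were the 2 lower members, at -0.69 and -0.46. Across 23 targets of YAP the median difference was -0.0023, with 11 above 0.

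Of 41 genes of G1/S and DNA replication, 6 had a difference above 0, and the median was -0.25 against -0.03 over all genes tested. None passed the adjusted threshold. At an unadjusted p under 0.05, 5 (12.2%) lay lower and 0 higher, beside 4.08% and 3.13% of all genes. The median response in the pairs was -0.13, 0.12 and 0.08 for CL1-0 against -0.01, -0.30 and -0.46 for CL1-5, so the pairs overlapped through the first pair of each line. Without the first CL1-5 pair the median was -0.39, with 1 of 41 above 0 and 17 genes lower at that threshold, beside 4.44% of all genes in that fit. Without the second CL1-0 pair it was -0.16, with 3 genes lower, beside 434 of the 13882 genes tested in that fit. Without the second pair of both lines it was -0.14, with 12 of 41 above 0 and 2 genes lower, beside 2.83%. MCM4, a subunit of the replicative helicase, had -0.67 ± 0.18, but 1 of its 4 probe sets gave 0.27. UHRF1, which keeps DNA methylation through replication, had -0.65 ± 0.18, and CDT1, which loads the helicase, had -0.51 ± 0.18. The pairs of UHRF1 were -0.11, 0.40 and 0.40 for CL1-0 against -0.47, -0.24 and -0.55 for CL1-5.

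The mean response of G2/M genes lay below 0 in 44 of 45 genes in CL1-0 and 43 of 45 in CL1-5, against 6590 and 7095 of the 13882 genes tested. The median difference was -0.08, with pair medians of -0.14, -0.29 and -0.13 for CL1-0 against -0.05, 0.16 and -0.95 for CL1-5. In CL1-5 this rested on the third pair: without it the list's median CL1-5 response was 0.01 in place of -0.29, and the median difference was 0.23. It was -0.25 without the first CL1-5 pair. ANLN, a scaffold of the contractile ring, had -0.56 ± 0.24 and MAD2L1, of the spindle checkpoint, -0.39 ± 0.18 (-0.25 without the first CL1-5 pair).

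Antigen presentation genes had the highest list median, 0.33, with 14 of 17 above 0 and 3 (17.6%) higher in CL1-5 at an unadjusted p under 0.05, beside 3.13% of all genes. This rested on the third CL1-5 pair: pair medians were -0.05, 0.06 and 0.00 in CL1-0 and 0.21, -0.04 and 0.91 in CL1-5, and without the third CL1-5 pair the median difference was -0.01. B2M, the constant chain of class I molecules, was less tied to it. Its log2 signals were 13.49, 14.08 and 13.77 without and 13.27, 13.76 and 13.53 with the field in CL1-0, and 14.50, 14.83 and 14.56 without and 14.69, 14.86 and 15.0002 with it in CL1-5. Every CL1-0 pair was lower with the field and every CL1-5 pair higher, and the difference was 0.48 ± 0.14 (adjusted p = 0.678), with both probe sets at an unadjusted p under 0.05. HLA-F and HLA-E had 0.76 ± 0.23 and 0.56 ± 0.21. For each, all 3 probe sets lay above 0, 1 of them at an unadjusted p under 0.05. The other HLA-F probe sets gave 0.10 and 0.16. Interferon response genes differed far more between CL1-5 pairs, with medians of 0.00, -1.11 and 1.53, than between the lines, where the median difference was 0.04.

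The endoplasmic reticulum stress list, the unfolded protein and ATF4 response, had a median difference of 0.16, with 25 of 35 above 0 and 1 gene (2.86%) higher at an unadjusted p under 0.05, beside 3.13% of all genes. Its pair medians did not overlap between the lines, a gap that 6.35% of all single genes also had in this direction. They were 0.07, 0.06 and -0.08 for CL1-0 against 0.14, 0.17 and 0.08 for CL1-5. STC2, a secreted glycoprotein of this response, had 0.52 ± 0.19, TRIB3 0.50 ± 0.23 (0.77 without the first CL1-5 pair) and the chaperone HSPA5 0.38 ± 0.18. Cholesterol synthesis genes lay on the other side, with 8 of 25 above 0, a median of -0.13 and pair medians of 0.01, -0.02 and 0.00 for CL1-0 against -0.29, -0.12 and -0.07 for CL1-5. That median was -0.04 with arrays centred on their median, -0.02 with all probe sets as features (27 of 55 above 0) and -0.24 without the second pair of both lines. ELOVL6, a fatty acid elongase counted in that list, had -0.70 ± 0.21 with all 3 probe sets below 0.

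Lists of very abundant transcripts had medians above 0 as the signals were deposited, and no such list was tested. Cytosolic ribosomal proteins had a median difference of 0.24, with 38 of 41 above 0 and 6 (14.6%) higher at an unadjusted p under 0.05, beside 3.13% of all genes, and RPL32, RPS19 and RPS18 had 0.44, 0.42 and 0.39 (0.26, 0.27 and 0.26 without the first CL1-5 pair). Respiratory chain subunits had 0.13, with 32 of 40 above 0 and 1 (2.5%) higher at that threshold, and genes often used as references had 0.22, with 12 of 13 above 0. These medians were 0.07 and 0.14 without the first CL1-5 pair. These values moved with signal level. Over all genes, the median difference was -0.20 in the dimmest of 5 equal bins by mean signal and -0.09, -0.04, -0.01 and 0.04 in the next 4, and 40 of 41 ribosomal genes and 29 of 39 hypoxia genes lay in the brightest bin. Under quantile normalization the ribosomal median was -0.01, with 19 of 41 above 0. Without the first CL1-5 pair it was 0.15, with 0 genes at an unadjusted p under 0.05. In that fit 4.27% of all genes were higher and 4.44% lower.

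**Figure D5:**
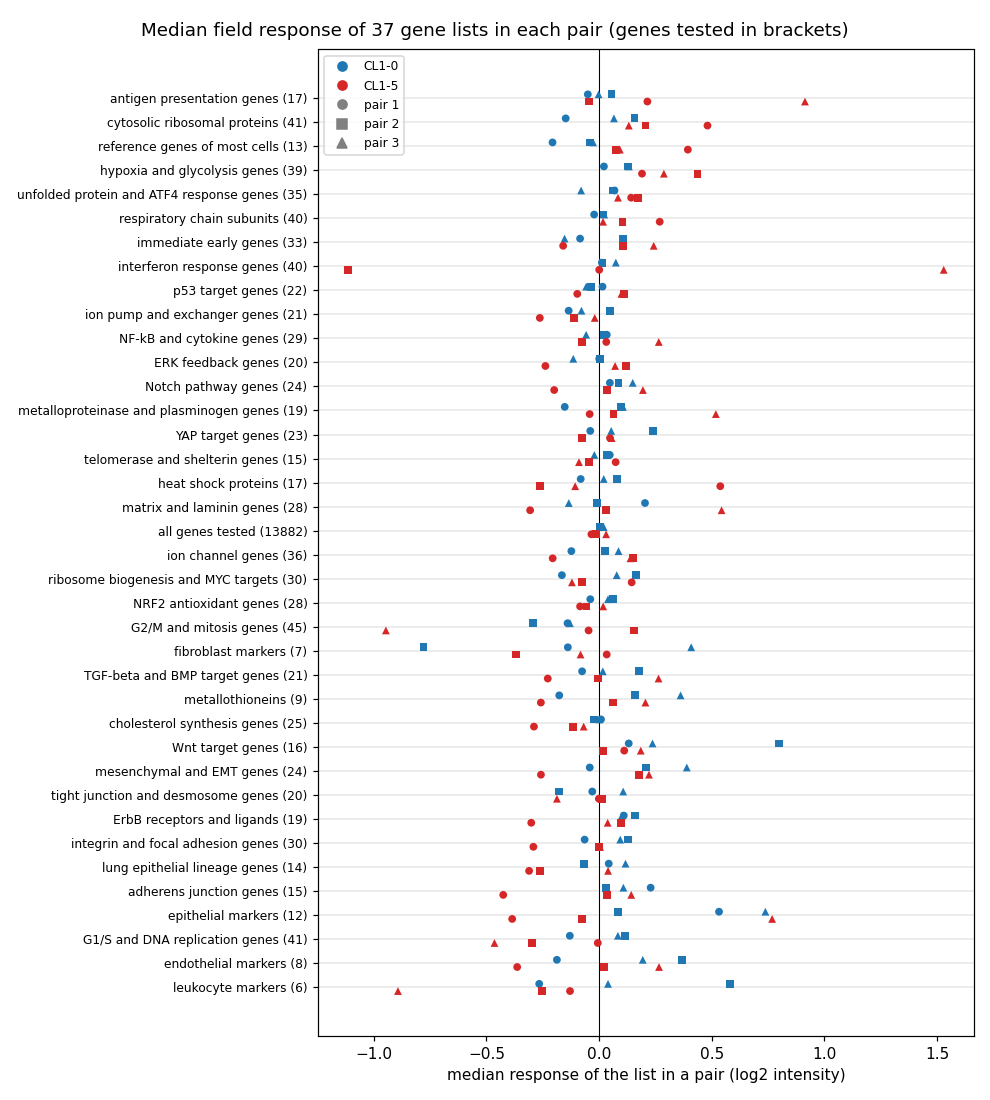
Median field response (log2 intensity) of 37 gene lists and of all genes tested in each of the 6 pairs, ordered by the median difference between the lines, with the number of genes tested in brackets. Red (CL1-5) and blue (CL1-0) symbols do not overlap for hypoxia, the unfolded protein response, reference genes, cholesterol synthesis and ErbB genes. Among single genes such a gap held for 6.35% (higher in CL1-5) and 8.06% (lower) of all genes tested, and the gaps of lists were not tested. The gap is narrow for ErbB genes (nearest medians 0.1012 in CL1-0 and 0.0989 in CL1-5). It is also narrow for the unfolded protein response (0.0682 in CL1-0 and 0.0837 in CL1-5). The third CL1-5 pair (red triangles) lies far out for interferon, antigen presentation and G2/M genes.

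Integrin and focal adhesion genes had 9 of 30 above 0 and a median of -0.18. Leaving out the first CL1-5 pair gave a median of -0.06, with 12 of 30 above 0, and averaging the probe sets of each gene gave -0.35. ITGA6, a laminin-binding integrin subunit, had -1.05 ± 0.36, which became -0.56 without the first CL1-5 pair. Its other probe set gave -0.18. Of 28 matrix and laminin genes 13 lay above 0. THBS1, an anti-angiogenic matrix protein, had pair responses of 0.01, 1.32 and 0.95 in CL1-0 and -0.84, -0.71 and 0.28 in CL1-5, a difference of -1.19 ± 0.36 with overlapping pairs. All 5 THBS1 probe sets lay below 0, from -0.04 to -1.19, 1 of them at an unadjusted p under 0.05. LAMB3, a laminin chain named after its values were seen, had -1.16 ± 0.49 from a low CL1-0 signal, and -0.38 with low values raised. KRT8 had pair responses of 0.53, 0.56 and 1.17 in CL1-0 and -0.27, -0.04 and 0.36 in CL1-5, a difference of -0.74 ± 0.23.

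MYH10, a non-muscle myosin heavy chain, had opposed pairs, -0.10, -0.18 and -0.26 in CL1-0 and 0.34, 0.27 and 0.26 in CL1-5, and a difference of 0.47 ± 0.14, though its other probe set gave -0.26. CTNNA1, which links cadherins to actin, had 0.56 ± 0.17. Of its 5 probe sets 4 lay above 0, 2 of them at an unadjusted p under 0.05. Those at mean signals of 12.81 and 11.86 gave 0.12 and 0.09, and the dimmest gave -0.65. CDH1 had a difference of -0.16 ± 0.81 (0.41 without the first CL1-5 pair) with CL1-5 pair responses between -1.12 and 2.51, where its signal is low, so its field response there was not resolved. VIM, a mesenchymal filament protein, had 0.28 ± 0.16, with -0.03 under quantile normalization and 0.18 without the first CL1-5 pair.

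Ion transport and membrane signalling genes gave large values mainly at low signal. SLC4A7, a sodium bicarbonate cotransporter, had pair responses of 0.43, 0.33 and 0.76 in CL1-0 and -0.67, -1.11 and -0.72 in CL1-5 and a difference of -1.34 ± 0.29 (adjusted p = 0.678), shared by 1 of 3 probe sets. KCNQ1, a potassium channel subunit, had 3.14 ± 0.70, and 1.28 with low values raised, and ICAM1, an adhesion molecule of the NF-kB list, had 1.94 ± 0.53, and 1.02 with low values raised. SPINT2, a protease inhibitor, had -1.50 ± 0.38, and 0.00 with low values raised, since its CL1-5 signals of 3.89 to 5.98 lay below the array median. Over 36 ion channel genes 16 lay above 0, with a median of -0.05, and over 21 pumps and exchangers 11, with a median of 0.03; without the first CL1-5 pair these were 0.01 and -0.02. IRS2, which couples insulin and growth factor receptors to PI3K, had pair responses of -0.03, 0.10 and -0.01 in CL1-0 and 0.44, 0.57 and 0.65 in CL1-5, a difference of 0.53 ± 0.15 (adjusted p = 0.678). WNT5A, a secreted Wnt ligand, had 0.69 ± 0.20, and ID1, a target of BMP signals, 0.44 ± 0.14. The other WNT5A probe set, at a mean signal of 9.2, gave 0.009. In the probe sets used for IRS2, WNT5A and ID1, all CL1-5 pairs lay above all CL1-0 pairs.

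TERT, the catalytic subunit of telomerase, had a difference of 1.14 ± 0.77 that came from 1 pair. Its CL1-5 pairs were 0.07, 3.36 and 0.06, the second from a control signal of 3.26, and with low values raised the difference was 0.18. Over 15 telomerase and shelterin genes the median difference was -0.01.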

How the data were processed

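RNA from CL1-0 and CL1-5 cells at 0 or 300 mV/mm was measured on 12 one-colour arrays. The deposited values are linear intensity values, which the authors computed with MAS5, per the submitters' processing notes. The sources used here give neither its version nor detection calls. Leaving out the lowest and highest 2%, every array had an equal mean (500.07 to 500.08), so no further scaling was done. Values under 1 (3691) were set to 1, and log2 values were computed from the deposited intensities. Probe sets above their array's median on at least 3 arrays were kept, named through the platform annotation (41097 with 1 symbol; 1801 with several were not used as genes), and the probe set with the highest mean stood for a gene.

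limma 3.58.1 in R 4.3.3 fitted a block per pair and a field effect per line (eBayes with trend, 4 residual and 6.37 prior degrees of freedom), with Benjamini-Hochberg adjustment at 0.05. The numbers, which the labels give, were taken as pairs by the definition of the difference. Deviations from group means had r of 0.346 to 0.609 in CL1-0 and 0.187 to 0.551 in CL1-5 for same-numbered arrays. For other numbers r was -0.471 to 0.269 and -0.505 to 0.284. In CL1-5 the replicate 3 value, 0.187, lay below both values between replicates 2 and 3 (0.23 and 0.284). The highest r, 0.609 and 0.551, were those of replicate 1, so these values do not establish the pairing. Fits were tested on simulated data. Members and lists were chosen with earlier results of these data known. Named genes were the 12 per direction with the smallest p among bright genes with pairs that did not overlap, up to 3 per list and direction, genes with opposed pairs, and CDH1, VIM, EGFR, TERT, FOS, EGR1, ADM and DDIT4. Precision is limited by the number of arrays. Alternatives covered the block, scaling, floor, filter, probe set choice, variance trend and leaving out pairs. Of the gene lists, 2 are not reported here.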

Additional observations from a re-analysis of the deposited data

Results flagged for a closer look

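In 32 of the named genes every CL1-5 pair went one way and every CL1-0 pair the other. Opposed or separated pairs were among the reasons for naming them, so this count is set by the choice and is not read against all genes. None passed the fit across all genes. Those with the higher CL1-5 response, with their difference in log2 units, were KCNQ1 (3.14), ICAM1 (1.94), PIAS2 (1.18), RAD54L2 (1.17), DLGAP4 (1.04), MMP9 (1.03), PDGFB (0.998), TFDP2 (0.99), DUSP16 (0.95), RAB27A (0.85), POGZ (0.82), HLA-F (0.76), KDM3A (0.74), GRB10 (0.73), PRKAB2 (0.65), BCKDHA (0.64), MAGED1 (0.59), CTNNA1 (0.56), HLA-E (0.56), B2M (0.48) and MYH10 (0.47). Those with the lower response were NECTIN1 (-1.54), B4GALT6 (-1.46), SLC4A7 (-1.34), U2AF2 (-1.15), SASS6 (-1.06), PLS1 (-1.04), COX3 (-1.02), MET (-0.84), ELOVL6 (-0.70), TRIB1 (-0.69) and DFFA (-0.66). The median response of genes often used as references was also opposed, with a median difference of 0.22: the pairs gave -0.21, -0.04 and -0.03 in CL1-0 and 0.39, 0.07 and 0.09 in CL1-5. That difference was not tested as a list. Groups of 3 arrays are too small for a test of single outlying arrays.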

How the results depend on the processing

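Of 19 alternatives, none gave a gene past the adjusted threshold for the difference between the lines; the smallest adjusted p ranged from 0.128 to 1. At an unadjusted p under 0.05 the count was 1002 in the paired fit and 150 with no replicate block, the latter with 0 adjusted calls, and 532 to 1593 with 1 pair left out. The CL1-0 response gave 1 call, FGF1, with all probe sets as features and 0 to 3 with arrays left out (3 without CL1-0 replicate 2, CEMIP, COL13A1 and NFE4, and 1 without CL1-0 replicate 3, FRMD4A). The CL1-5 response gave 0 to 2 (ID4 and MEF2C without CL1-5 replicate 2, DNM3OS and HORMAD1 without CL1-5 replicate 3). These genes were named after the values were seen. With no replicate block, the hypoxia, immediate early, ribosomal and G1/S lists each had 0 genes at an unadjusted p under 0.05, beside 68 higher and 82 lower of all genes. Signs turned in genes near 0 or with discordant probe sets, and in VIM. Both VIM probe sets lay above 0, at 0.28 and 0.05, and why its sign turned was not tested. Quantile normalization gave -0.0304 for VIM and 0.0026 for EGR1, and centring gave 0.0525 for EGR1. The mean of probe sets gave POGZ -0.36, U2AF2 0.34, PDGFB -0.12, LRIG1 0.25 and EGFR 0.29. With arrays left out, EGFR ranged from -0.207 to 0.0617, EGR1 from -0.62 to 0.58, CDH1 from -1.49 to 0.53, NOTCH1 from -0.15 to 0.26 and HES1 from -0.0946 to 0.32. For the rest the cause was not tested. Dim genes are limited by background: a value below the array median moves freely on the log2 scale.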

Other observations

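SASS6, PDGFB and DUSP16 had opposed pairs and belong to no comparison given above. SASS6, which builds the cartwheel of new centrioles, had pair responses of 0.86, 0.45 and 0.35 in CL1-0 and -0.47, -0.74 and -0.33 in CL1-5. PDGFB, a platelet-derived growth factor chain, had -0.29, -0.46 and -0.68 in CL1-0 and 0.09, 0.49 and 0.99 in CL1-5, but its second probe set gave -1.23. DUSP16, a phosphatase of the JNK pathway, had -0.40, -1.07 and -0.26 in CL1-0 and 0.61, 0.00 and 0.52 in CL1-5, and all 3 of its probe sets lay higher in CL1-5, 2 of them at an unadjusted p under 0.05. None of the 3 genes passed the adjusted threshold of the limma fit.

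Among 5266 probe sets with no gene symbol or several, 0 passed the adjusted threshold for the difference between the lines (limma, smallest adjusted p 0.317), and 335 (6.36%) had an unadjusted p under 0.05.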
